A study of Cryptomeria japonica with 72 samples.

Results

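Heat shock proteins and chaperones were followed through adventitious root formation in stem cuttings of Cryptomeria japonica, the Japanese cedar. The 67 targets described here were every target in the available copies of 2 supplementary tables of the study, 1 listing cluster members and 1 the targets that weighed most on its first principal component, whose description holds "heat shock", "chaperon", "HSP" or "DNAJ", whatever the case of the letters. They came from 5239 targets in those copies, which were shortened, and from 19304 targets on the array. The descriptions are those of the closest Arabidopsis thaliana protein of each target, so a role named here is the role known from Arabidopsis unless another organism is named. By role, 8 targets matched small heat shock proteins, 11 ATP-driven chaperones, 7 co-chaperones and regulators of the heat shock response, 33 J-domain proteins, 3 proteins with only the cysteine-rich domain of DnaJ, and 5 chaperones of other cargo such as copper or histones. The 67 targets had 54 different closest proteins, and 7 of these were shared by 20 targets. Cross-hybridization between targets that share a closest protein was not tested. The study had put a target in those tables because of how it varied among these same arrays, so that changes of the members are not independent evidence and a raised share of called members follows in part from the choice.

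Chaperones bind proteins that are unfolded, newly made or damaged, and keep them from clumping. Small heat shock proteins hold such proteins without ATP, whereas HSP70, HSP90, the chaperonins and the disaggregase HSP101 use ATP to fold, mature or release them, and J-domain proteins choose the client and switch on the ATPase of HSP70. In plants, heat, wounding and other stresses induce many cytosolic chaperones through heat shock transcription factors, and a load of proteins to fold in the endoplasmic reticulum (ER) induces the ER chaperones.

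Cuttings of the clone Tsukuba 1 were taken in the field, inserted in Kanuma soil in a greenhouse without climate control and watered automatically. The base (underground), the middle (above ground) and a length of shoot with its needles were collected from 3 cuttings at each of 8 times, which were 0 h post-excision (0 hpe), 0 h post-insertion (0 hpi, about 2 h after excision), 3 hpi, 1 and 3 days post-insertion (dpi) and 1, 3 and 6 weeks post-insertion (wpi), which gave 24 groups of 3 arrays. All samples were of 1 clone, none was left uncut, and the 3 bases at 6 wpi already bore roots. Time since excision, time of day and greenhouse temperature cannot be told apart. In these bulk samples, fewer cells of a type and less RNA per cell cannot be told apart either.

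Each array measured 1 sample with 1 dye. A value below is the log2 of the mean signal of the 3 or 4 spots of a target, minus the 75th percentile of the array, so that 0 equals that percentile. Levels are compared within a target only. Groups were compared with limma, whose log2 differences are given with their standard error (SE). To be called, a difference had to reach a size of 1 and an adjusted p below 0.05, with the adjustment over the whole list of measurable targets. Of the 67 members, 64 were on the list for base and middle (11909 targets) and all 67 on the list for needles (13397 targets). The other 3, a TCP-1 subunit (reCj12690), a J11 target (reCj30541) and the copper chaperone COX17 (reCj30938), had a signal of 10 or less on 8, 1 and 1 of the 48 stem arrays and were tested in needles only. No member was without a spot well above background in any group. Every spot was well above background on all stem arrays for 57 of the 64, and on all needle arrays for 65 of the 67. Between 66.0% and 86.9% of the spots of an array were well above background. At 0 hpe replicates 1 and 3 correlated least in the stem, at 0.834 for bases and 0.850 for middles. Replicate 2 correlated with them at 0.929 and 0.907 for bases and at 0.941 and 0.916 for middles. In needles at 0 hpe replicate 2 stood apart (0.954 and 0.917, against 0.990 between the others). It also stood apart at the base at 3 hpi (0.892 and 0.900) and in the middle at 6 wpi (0.884 and 0.841). Of the 9 slides, 6 carried base and needle samples and 3 only middle samples. Slide and part therefore cannot be told apart where base and middle are compared directly. The 6 markers of green tissue were the photosynthesis genes PSAL, PSAO, FED A, PSBW, PSBTN and LHCA4. PSBW, PSBTN and LHCA4 were taken from the study's list of targets that weighed most on its first principal component. They were thus listed for how they varied among these same arrays, and their fall at the base is not an independent gauge of green tissue. All 6 markers were above background in every group. Their mean was between 4.27 and 4.93 on the base arrays at 0 hpe, 1.08 and 2.04 at 3 hpi and -2.21 and -0.45 at 6 wpi, against 5.05 to 5.14 and 5.42 to 5.54 in needles at 0 hpe and 6 wpi.

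Counted without a block and over all arrays of the list, more members were called higher than lower in each of the 12 comparisons of a later time with 0 hpe. At the base, 14 of 64 members were called higher and 2 lower at 0 hpi (7.19% and 4.5% of all targets were called higher and lower), 20 and 10 at 3 hpi (14.8% and 16.1%), 17 and 11 at 1 dpi (15.5% and 14.5%) and 10 and 6 at 6 wpi (17.5% and 12.7%). In the middle, the counts were 10 and 2 at 0 hpi (6.03% and 3.94%), 16 and 7 at 3 hpi (11.1% and 8.73%), 17 and 6 at 1 dpi (10.8% and 10.5%) and 4 and 1 at 6 wpi (1.15% and 0.697%). In needles, 9 of 67 members were called higher and 1 lower at 0 hpi (5.6% and 4.44%), 12 and 3 at 3 hpi (4.57% and 4.95%), 6 and 2 at 1 dpi (1.78% and 2.22%) and 5 and 3 at 6 wpi (5.57% and 7.96%). The share of members called higher was above that of all targets in 11 of the 12 comparisons, the exception being the base at 6 wpi, and the share of members called lower was above that of all targets in 4 of the 12 (the base and needles at 1 dpi and the middle at 3 hpi and 6 wpi). At the base the median log2 difference over the members was -0.09 at 0 hpi, 0.56 at 3 hpi, 0.47 at 1 dpi and -0.02 at 6 wpi, where that over all targets was -0.12, -0.04, 0.04 and 0.15. At the same times it was 0.13, 0.31, 0.25 and 0.21 in the middle (all targets -0.12, -0.06, -0.03 and 0.01). In needles it was 0.05, 0.12, 0.01 and 0.01 (all targets -0.06, -0.03, 0.01 and 0.03). The median over all targets was beyond 0.1 in size at 0 hpi in both stem parts (-0.12 each) and at the base at 6 wpi (0.15), and differences at those times are to be read relative to it. With the slide as a block in the fit, all 16 calls at the base at 6 wpi were lost and 1 other member, the TCP-1 subunit reCj21014, was called (1.26, adjusted p = 0.0319), whereas 23 members were called at the base at 3 hpi and 22 at 1 dpi. The higher and lower calls with it were 2 and 2 in the middle at 0 hpi and 0 and 1 in needles at 6 wpi. Arrays of 0 hpe shared no slide with the base at 3 hpi or 6 wpi, the middle at 0 hpi or 3 hpi, or needles at 3 hpi or 6 wpi. These changes could not be seen within a slide. All 3 middle arrays of 0 hpe lay on 1 slide. Fitted on only the arrays compared, 10 members were called in the middle at 3 hpi and none at 6 wpi, and in needles the higher and lower calls were 1 and 1 at 3 hpi, 2 and 2 at 1 dpi and 4 and 5 at 6 wpi. With normexp background correction they were 1 and 2 in needles at 6 wpi. With quantile normalization the split of higher and lower calls was 9 and 6 at the base at 0 hpi, 8 and 5 in the middle at 0 hpi and 9 and 12 at the base at 6 wpi.

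**Figure D1:**
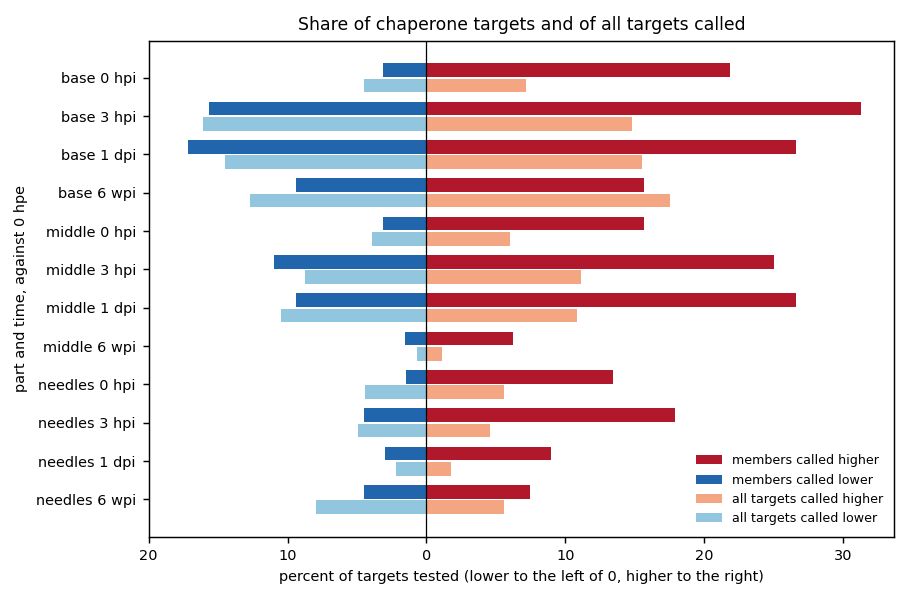
The bars give the percent of targets called higher (to the right of 0) or lower (to the left) at 4 times against 0 hpe in each part, for the heat shock and chaperone members and for all targets tested. At the base at 3 hpi, 31.2% of members were called higher against 14.8% of all targets, and 15.6% lower against 16.1%.

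Over the 4 times tested, 44 of 64 members (68.8%) were called at least at 1 time at the base, 37 of 64 (57.8%) in the middle and 23 of 67 (34.3%) in needles, against 52.4%, 32.9% and 25.8% of all targets tested. Of members called higher, base and middle shared 10 at 0 hpi (71.4% of those at the base and 100% of those in the middle), where over all targets the shares were 75.5% and 90%. They shared 13 at 3 hpi (65% and 81.2%, all targets 66.1% and 88.2%) and 13 at 1 dpi (76.5% of each, all targets 55.4% and 79.5%). At 6 wpi they shared 0 of 10 and 4, and over all targets 4.84% and 73.7%. These overlaps are a description, since the members were chosen as varying targets. At the base the group mean was highest at 3 hpi for 18 members and at 0 hpe for 15. In the middle it was highest at 3 hpi for 16 members, at 1 dpi for another 16 and at 6 wpi for 14. In needles 18 members were highest at 6 wpi, 15 at 0 hpi and 13 at 3 hpi. Peak times were not counted over all targets, so these counts only describe the members. The widest span of group means was that of the DnaJ-domain target reCj33232, 9.09 at the base and 8.06 in the middle. The median SD between replicate arrays was 0.340 for members at the base against 0.342 for all targets, 0.330 against 0.269 in the middle and 0.269 against 0.227 in needles.

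**Figure D2:**
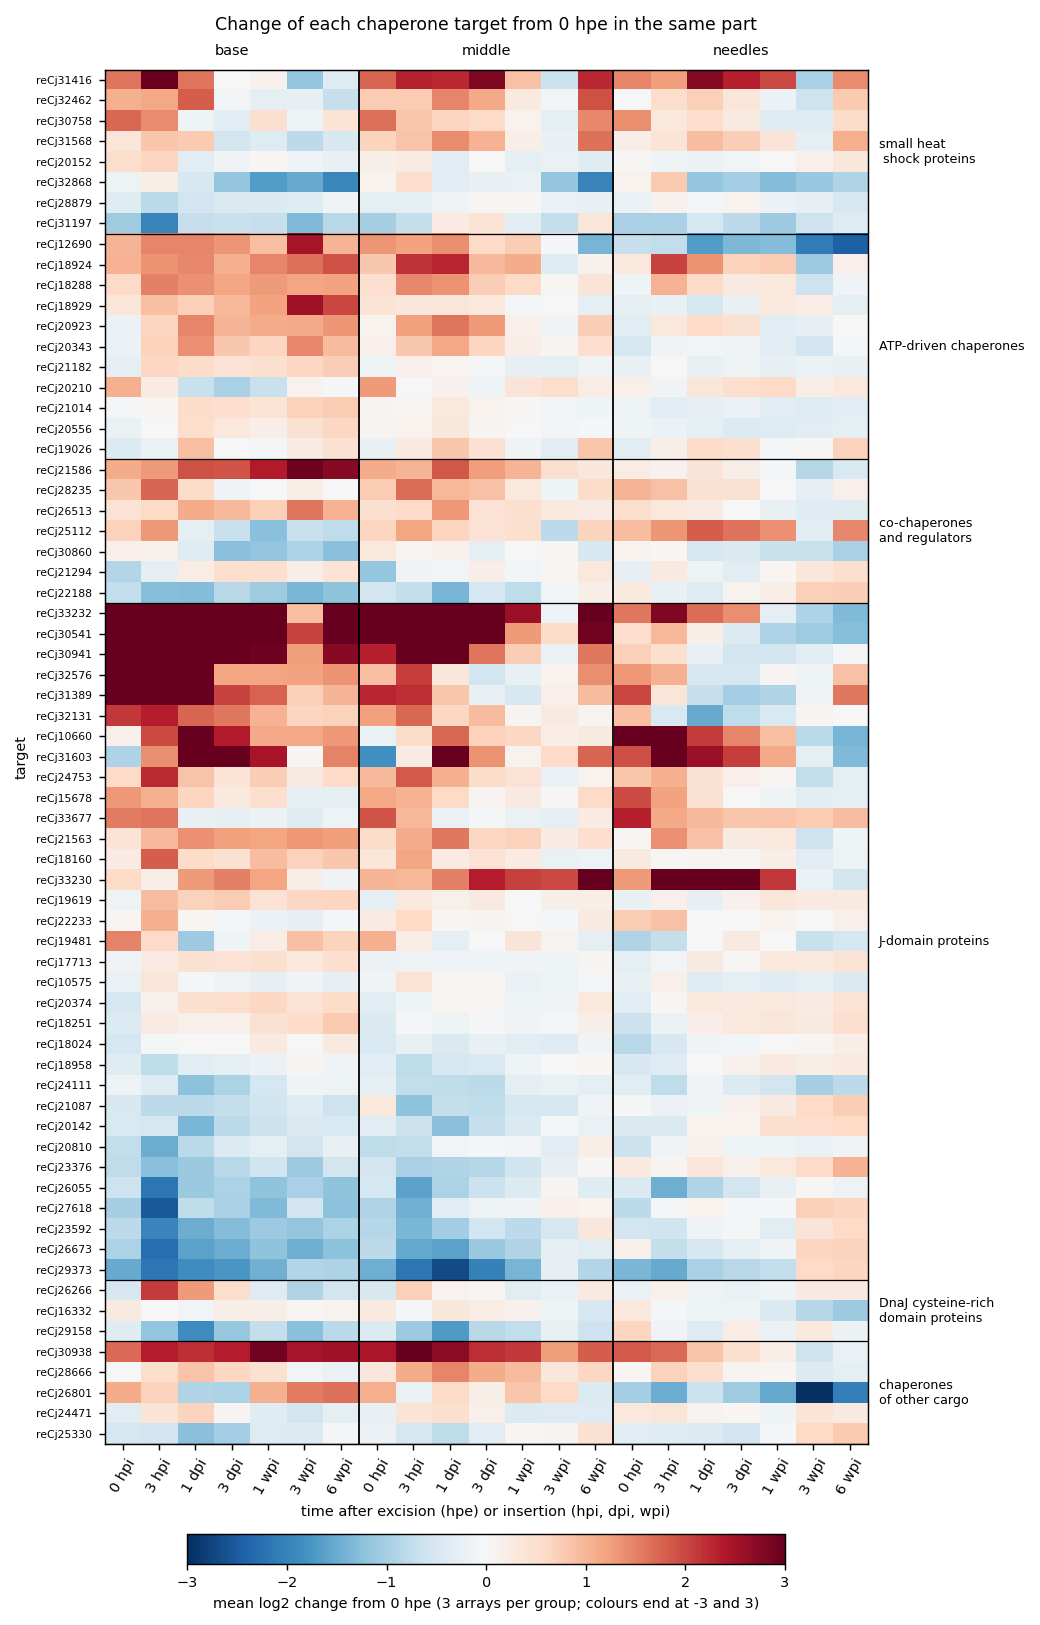
Each cell gives the log2 change of the mean of 3 arrays from 0 hpe in the same part, for the 67 members in rows, ordered by role, and the later times in columns by part (colours end at -3 and 3). The J-domain targets reCj33232 and reCj30941, both tested in the stem, rose by 8.55 and 5.12 at the base at 3 hpi, beyond the end of the colour scale.

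Of the 4 class I cytosolic small heat shock protein targets, 3 rose at the base within hours of excision. At 6 wpi 3 were higher than at 0 hpe in the middle, 2 in needles and none at the base. All 4 have 1 closest protein, HSP17.6C, which binds unfolding proteins in the cytosol and is induced by heat. They were called higher in 23 of their 48 comparisons with 0 hpe and lower in none.

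reCj31416 was called higher in 11 of its 12 comparisons. At the base it was -2.61, -2.70 and -2.19 at 0 hpe on replicates 1, 2 and 3, 0.86, -0.90 and 1.42 at 3 hpi and -2.96, -1.95 and -3.72 at 6 wpi. Middle arrays were -1.66, -3.09 and -2.33 at 0 hpe, 0.98, -1.49 and 0.36 at 3 hpi and 0.16, 0.14 and -0.63 at 6 wpi. Needle arrays were -3.62, -4.47 and -3.37 at 0 hpe, -0.26, -1.13 and -1.81 at 1 dpi and -2.39, -2.33 and -2.49 at 6 wpi. The arrays of these later groups lay above those at 0 hpe in the middle and in needles, and at the base they did so at 3 hpi and overlapped at 6 wpi. The log2 difference from 0 hpe at 3 hpi was 2.96 (SE 0.58, adjusted p = 6.72e-05) at the base and 2.31 (SE 0.58, adjusted p = 0.00203) in the middle, and at 1 dpi it was 2.75 (SE 0.39, adjusted p = 0.000174) in needles. These calls held when any single array was left out. The rise at 0 hpi was 1.61 (SE 0.58, adjusted p = 0.0395) at the base, 1.74 (SE 0.58, adjusted p = 0.0315) in the middle and 1.46 (SE 0.39, adjusted p = 0.0093) in needles. Its call was lost without base 0 hpe replicate 1 or 2 or base 0 hpi replicate 1 (1.02 to 1.56), without middle 0 hpe replicate 2 or middle 0 hpi replicate 1 or 2 (1.38 to 1.71) and without needles 0 hpe replicate 2 or needles 0 hpi replicate 1 (1.05 to 1.14). With the slide as a block the call at 0 hpi was lost at the base (1.61, adjusted p = 0.0619) and in the middle (1.37, adjusted p = 0.18), and that at 6 wpi in the middle (2.04, adjusted p = 0.0648) and in needles (2.00, adjusted p = 0.146).

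reCj30758 rose briefly. It was -2.73, -2.74 and -3.25 at the base at 0 hpe, -0.86, -1.27 and -1.40 at 0 hpi and -3.38, -3.06 and -2.77 at 1 dpi. In needles it was -3.19, -3.18 and -3.32 at 0 hpe and -1.33, -1.85 and -2.37 at 0 hpi. The arrays at 0 hpi lay above those at 0 hpe in both parts, and at the base those at 1 dpi overlapped them again. The difference at 0 hpi was 1.73 (SE 0.46, adjusted p = 0.00607) at the base, 1.65 (SE 0.46, adjusted p = 0.0103) in the middle and 1.38 (SE 0.26, adjusted p = 0.000766) in needles, and the call in the middle was lost without middle 0 hpe replicate 2 (1.44, adjusted p = 0.068). At 3 hpi it was called at the base only (1.42), and this call was lost without base 3 hpi replicate 3 (1.03, adjusted p = 0.0866).

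reCj32462 and reCj31568 rose later in the stem. reCj32462 was -1.70, -1.45 and -1.68 at the base at 0 hpe and 0.91, -0.23 and -0.07 at 1 dpi, and in the middle -1.18, -1.70 and -1.70 at 0 hpe, -0.14, 0.36 and -0.42 at 1 dpi and 0.83, -0.08 and 0.40 at 6 wpi. None of these later groups overlapped 0 hpe. The difference at 1 dpi was 1.81 (SE 0.38, adjusted p = 0.000175) at the base (with the slide as a block 1.28, adjusted p = 0.0572) and 1.46 (SE 0.38, adjusted p = 0.00256) in the middle, and at 6 wpi it was 1.91 (SE 0.38, adjusted p = 0.00296) in the middle. Its earlier calls at the base, 1.06 at 0 hpi and 1.16 at 3 hpi, were lost without base 0 hpe replicate 1, 2 or 3 or base 0 hpi replicate 1 or 2 (0.78 to 1.15) and without base 3 hpi replicate 1 or 3 (0.74 to 0.92). reCj31568 was -1.56, -2.11 and -1.85 in the middle at 0 hpe, -0.53, 0.04 and -0.76 at 1 dpi and -0.01, -0.51 and -0.05 at 6 wpi, with differences of 1.42 (SE 0.42, adjusted p = 0.00663) and 1.65 (SE 0.42, adjusted p = 0.0188). The call at 1 dpi held when any array was left out, and that at 6 wpi was lost without middle 0 hpe replicate 2 or middle 6 wpi replicate 1 (1.51 to 1.56). At 3 hpi all 4 targets were lowest on replicate 2 in both stem parts and on replicate 1 in needles.

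At 6 wpi the class I targets separated the stem parts. On base and middle arrays reCj31416 was -2.96, -1.95 and -3.72 and 0.16, 0.14 and -0.63, reCj31568 was -2.48, -2.19 and -3.12 and -0.01, -0.51 and -0.05, and reCj32462 was -2.51, -1.80 and -2.61 and 0.83, -0.08 and 0.40. Every base array lay below every middle array for these 3. The difference of base from middle was -2.77 (SE 0.58, adjusted p = 0.000273), -2.41 (SE 0.42, adjusted p = 3.11e-05) and -2.69 (SE 0.38, adjusted p = 2.13e-06), and these calls held when any single array was left out. For reCj30758 the difference was -1.07 (SE 0.46, adjusted p = 0.0544), which was not called, but was with the replicate number as a block (-1.07, adjusted p = 0.015). Set against the change in the middle since 0 hpe, the change of the base was lower, with a difference of -2.63 (SE 0.82, adjusted p = 0.0201) for reCj31416, -2.14 (SE 0.59, adjusted p = 0.00978) for reCj31568 and -2.61 (SE 0.54, adjusted p = 0.00134) for reCj32462. That of reCj31416 was lost without base 6 wpi replicate 3 or middle 0 hpe replicate 2 (-2.27 to -2.21). With the slide as a block these changes were -1.79, adjusted p = 0.465, -1.25, adjusted p = 0.427 and -2.44, adjusted p = 0.1, so that none was called. The mean of the green tissue markers at 6 wpi was between -2.21 and -0.45 on the base arrays and between 2.44 and 5.33 on the middle arrays; its part in the difference was not tested.

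**Figure D3:**
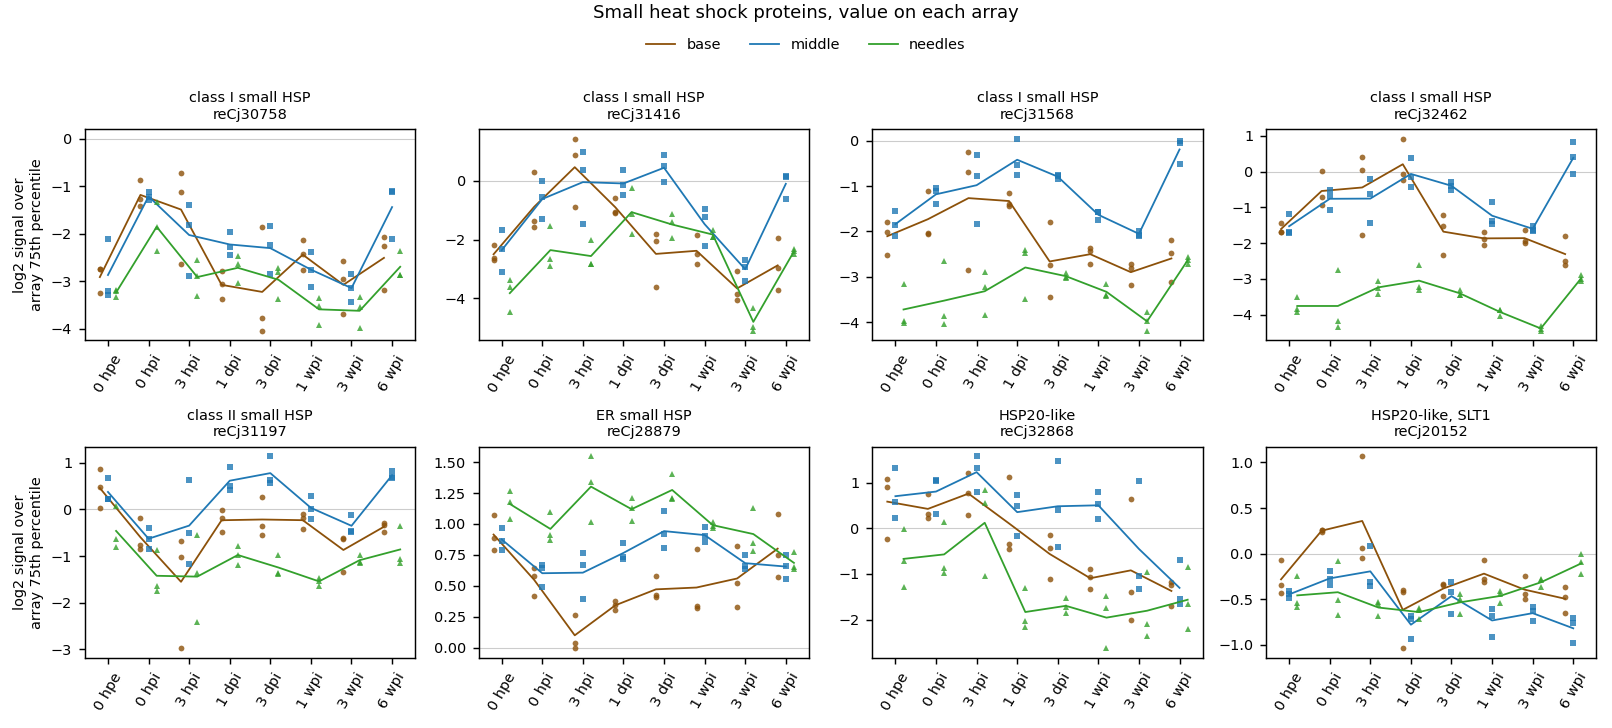
Points give the value of each array (log2 signal minus that of the 75th percentile) for the 8 small heat shock protein targets at the 8 times, coloured by part, and lines join the means of 3 arrays. reCj31416 reached a mean of 0.46 at the base at 3 hpi from -2.50 at 0 hpe, and at 6 wpi the mean of the middle lay above that of the base for all 4 class I targets.

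The other 4 small heat shock protein targets were called higher at no tested time. reCj31197, whose closest protein is an HSP20-like protein of class II, was 0.48, 0.87 and 0.03 at the base at 0 hpe and -0.67, -2.97 and -1.01 at 3 hpi, with no overlap. It fell at 3 hpi (-2.01, SE 0.37, adjusted p = 3.11e-05), and its fall at 0 hpi (-1.06, SE 0.37, adjusted p = 0.0358) was lost without base 0 hpe replicate 1 or 2 or base 0 hpi replicate 2 or 3 (-1.05 to -0.85). At 6 wpi it was lower at the base than in the middle (-1.11, SE 0.37, adjusted p = 0.0153). reCj32868, another HSP20-like protein, was 0.92, -0.23 and 1.08 at 0 hpe and -1.71, -1.17 and -1.24 at 6 wpi at the base. Its difference at 6 wpi was -1.96 (SE 0.55, adjusted p = 0.0033) at the base, where it was lost with the slide as a block (-1.99, adjusted p = 0.32). In the middle it was -2.01 (SE 0.55, adjusted p = 0.0309), and was lost without middle 0 hpe replicate 1, 2 or 3 or middle 6 wpi replicate 1 or 2 (-2.26 to -1.71). The small heat shock protein of the ER (reCj28879) and SLT1 (reCj20152), an HSP20-like protein linked to sodium and lithium tolerance, were called in no comparison, and their differences from 0 hpe at the base were between -0.81 and 0.64. Those of SLT1 at 0 hpi (0.53, SE 0.18, adjusted p = 0.0318) and 3 hpi (0.64, SE 0.18, adjusted p = 0.00386) passed the adjusted p without reaching a size of 1, and the arrays did not overlap those of 0 hpe. The same held for the lower values of reCj28879 at 3 hpi (-0.81, SE 0.13, adjusted p = 5.68e-06).

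HSP101 (reCj18929), the cytosolic disaggregase that pulls proteins out of aggregates together with small heat shock proteins and HSP70, was called at the base only, at 6 wpi. At the base it was -2.21, -2.69 and -2.52 at 0 hpe, -1.46, -1.60 and -1.69 at 3 hpi, -0.74, 0.31 and 0.67 at 3 wpi and -0.18, -0.57 and -0.68 at 6 wpi. Middle arrays were -2.37, -2.61 and -2.38 at 0 hpe and -2.99, -2.42 and -2.84 at 6 wpi, and needle arrays -2.82, -2.39 and -2.82 at 0 hpe and -2.97, -2.82 and -3.13 at 6 wpi. The base arrays at 6 wpi lay above those at 0 hpe, and above all middle and needle arrays of 6 wpi. The difference from 0 hpe at 6 wpi was 2.00 (SE 0.26, adjusted p = 3.19e-07) at the base, and it was -0.30 in the middle and -0.30 in needles, parts in which HSP101 was called at no tested time. At the base at 3 hpi the difference (0.89, SE 0.26, adjusted p = 0.00435) passed the adjusted p below a size of 1, with all arrays above those of 0 hpe. Base exceeded middle at 6 wpi by 2.27 (SE 0.26, adjusted p = 1.08e-07). The change at the base was larger than that in the middle by 2.29 (SE 0.37, adjusted p = 0.000195), and the change in needles minus that at the base was -2.29 (SE 0.37, adjusted p = 1.84e-06). No array decided these calls, but with the slide as a block the change at the base (2.01, adjusted p = 0.108) and its difference from the middle (2.39, adjusted p = 0.0538) were not called. The green tissue markers differed between base and middle at 6 wpi as given above, and their part was not tested. The bases at 3 wpi were not compared by a test; their 3 arrays all lay above those at 0 hpe.

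**Figure D4:**
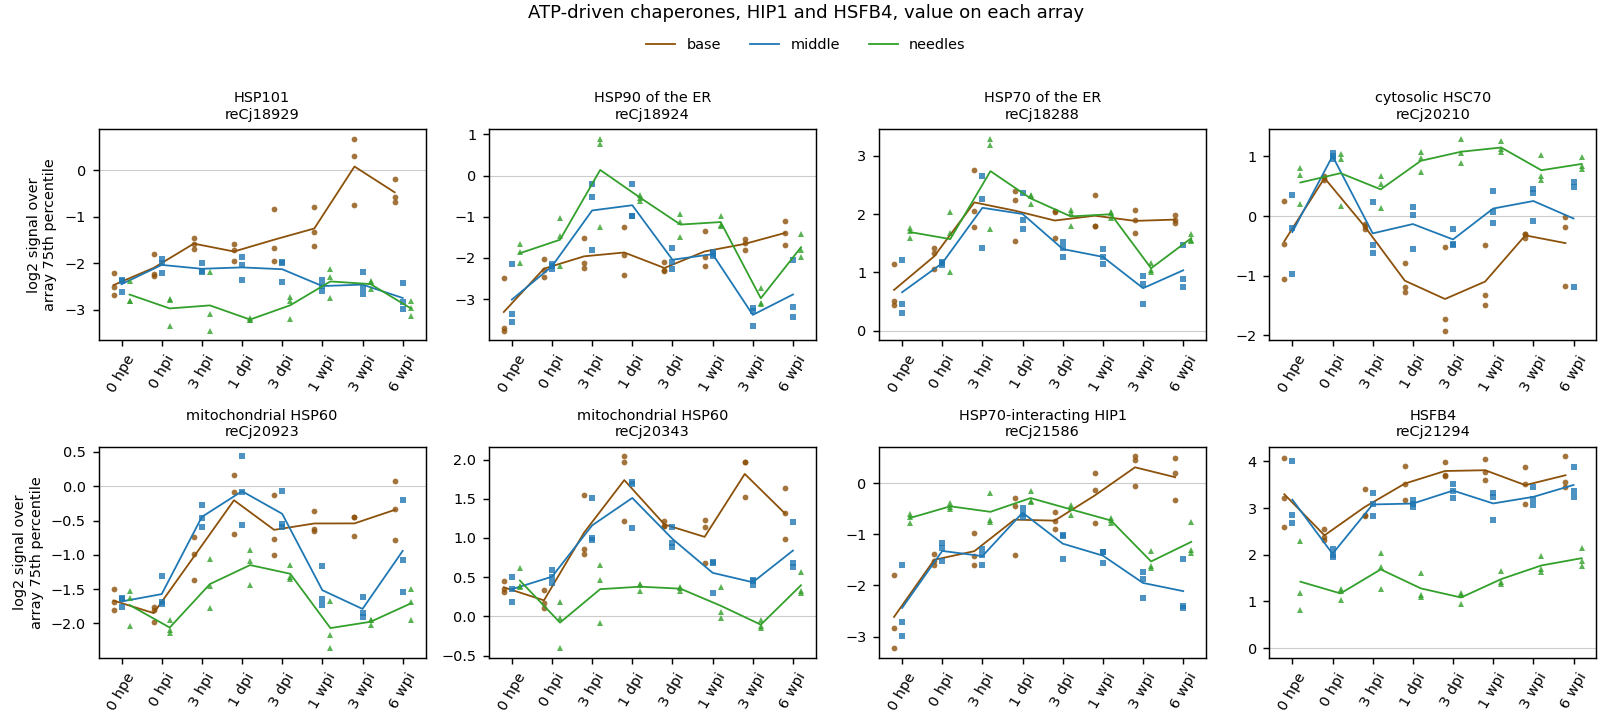
Points give the value of each array (log2 signal minus that of the 75th percentile) for 6 ATP-driven chaperone targets, HIP1 and HSFB4 at the 8 times, coloured by part, and lines join the means of 3 arrays. HSP101 at the base climbed from a mean of -2.47 at 0 hpe to 0.08 at 3 wpi, while the middle was at -2.46 and needles at -2.45.

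HSP90 and HSP70 of the ER rose at 3 hpi and 1 dpi in both stem parts. The ER HSP90 (reCj18924, SHEPHERD), which folds receptors and secreted proteins, was -3.35, -3.55 and -2.14 in the middle at 0 hpe, -0.20, -0.52 and -1.82 at 3 hpi and -0.20, -0.98 and -0.98 at 1 dpi. In needles it was -1.86, -2.13 and -1.66 at 0 hpe and 0.89, -1.25 and 0.77 at 3 hpi, and at the base -3.69, -3.76 and -2.48 at 0 hpe, -2.24, -1.53 and -2.12 at 3 hpi and -1.40, -1.68 and -1.10 at 6 wpi. In each case the later arrays lay above those at 0 hpe. The difference from 0 hpe was 2.16 (SE 0.38, adjusted p = 3.81e-05) at 3 hpi and 2.29 (SE 0.38, adjusted p = 1.78e-05) at 1 dpi in the middle, and 2.02 (SE 0.39, adjusted p = 0.00101) at 3 hpi in needles. At the base it was 1.35 (SE 0.38, adjusted p = 0.00291) at 3 hpi and 1.92 (SE 0.38, adjusted p = 8.72e-05) at 6 wpi. With the slide as a block the calls at the base were lost at 3 hpi (1.27, adjusted p = 0.126) and at 6 wpi (1.62, adjusted p = 0.204). Its change to 6 wpi was larger at the base than in the middle by 1.80 (SE 0.53, adjusted p = 0.015). This call was lost without base 0 hpe replicate 2, middle 0 hpe replicate 3 or middle 6 wpi replicate 3 (1.36 to 1.57).

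An ER target of the HSP70 superfamily (reCj18288) rose at 3 hpi by 1.50 (SE 0.27, adjusted p = 2.49e-05) at the base and 1.45 (SE 0.27, adjusted p = 0.00011) in the middle, and at 1 dpi by 1.36 and 1.34. It was 0.50, 0.44 and 1.15 at the base at 0 hpe and 1.78, 2.76 and 2.06 at 3 hpi. In needles its rise at 3 hpi of 1.05 (SE 0.28, adjusted p = 0.0112) was lost without needles 0 hpe replicate 2 or needles 3 hpi replicate 1 or 3 (0.77 to 1.00). At 6 wpi it was 1.21 (SE 0.27, adjusted p = 0.000467) above 0 hpe at the base, and with the slide as a block 1.29, adjusted p = 0.18.

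The J-domain partners of these ER chaperones were described after their values were seen. ERDJ3B (reCj24753), which in Arabidopsis helps ER HSP70 fold immune receptors, was 1.47, 1.82 and 1.84 at the base at 0 hpe and 3.71, 4.21 and 3.93 at 3 hpi, and in the middle 1.43, 1.41 and 2.03 at 0 hpe and 4.10, 3.51 and 2.78 at 3 hpi. The groups did not overlap. Its rise at 3 hpi was 2.24 (SE 0.26, adjusted p = 1e-08) at the base, 1.84 (SE 0.26, adjusted p = 1.81e-06) in the middle and 1.06 (SE 0.21, adjusted p = 0.0014) in needles, the last of which was lost without needles 0 hpe replicate 1 or needles 3 hpi replicate 1 or 3 (0.82 to 0.99). P58IPK (reCj21563), another ER J protein, was not called at the base at 3 hpi (0.96, SE 0.22, adjusted p = 0.000436). It rose by 1.37 (SE 0.22, adjusted p = 5.27e-06) at the base and 1.59 (SE 0.22, adjusted p = 2.02e-06) in the middle at 1 dpi, and by 1.36 (SE 0.22, adjusted p = 0.000193) in needles at 3 hpi. ERDJ3A (reCj20810) moved the other way, from 0.12, 0.21 and -0.20 at the base at 0 hpe to -1.35, -1.47 and -1.50 at 3 hpi (-1.49, SE 0.17, adjusted p = 7.2e-09). It was called in no other comparison with 0 hpe.

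Mitochondrial HSP60, the chaperonin that folds imported proteins, was measured by reCj20343 and reCj20923, which share 1 closest protein. At the base reCj20343 was 0.36, 0.45 and 0.31 at 0 hpe and 1.21, 1.96 and 2.04 at 1 dpi, and reCj20923 was -1.50, -1.81 and -1.69 and -0.69, -0.08 and 0.16. Both groups at 1 dpi lay above 0 hpe. At 1 dpi the differences were 1.37 (SE 0.21, adjusted p = 2.99e-06) and 1.46 (SE 0.27, adjusted p = 3.32e-05) at the base and 1.16 (SE 0.21, adjusted p = 6.2e-05) and 1.61 (SE 0.27, adjusted p = 2.24e-05) in the middle, and no single array decided them. In needles neither was called. CPN20 (reCj26513), the co-chaperonin of the chloroplast, described after its values were seen, rose in the middle at 1 dpi by 1.30 (SE 0.21, adjusted p = 1.56e-05). Its rise at the base at 1 dpi (1.11, SE 0.21, adjusted p = 5.38e-05) was lost without base 0 hpe replicate 2 or base 1 dpi replicate 3 (0.94 each).

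Cytosolic HSC70 (reCj20210), the constitutive HSP70 that represses the heat shock response when proteins are folded, was -1.05, -0.46 and 0.25 at the base at 0 hpe and 0.60, 0.68 and 0.63 at 0 hpi. In the middle it was -0.97, -0.20 and 0.36 at 0 hpe and 1.01, 1.05 and 0.96 at 0 hpi. Its rise at 0 hpi was 1.06 (SE 0.38, adjusted p = 0.0405) at the base and 1.28 (SE 0.38, adjusted p = 0.0173) in the middle. The first call was lost without base 0 hpe replicate 1 or 2 or base 0 hpi replicate 1, 2 or 3 (0.74 to 1.08). The second was lost without middle 0 hpe replicate 1 or middle 0 hpi replicate 1 or 3 (0.93 to 1.30). Of the subunits of the cytosolic chaperonin TCP-1, which folds actin and tubulin, reCj20556, reCj21014 and reCj21182 were called at no tested time in any part. At the base at 6 wpi they passed the adjusted p below a size of 1 (0.62, 0.77 and 0.73, with adjusted p = 0.000957, 5.28e-05 and 0.000499 by limma). Their arrays there lay above those of 0 hpe. The other subunit, reCj12690, was tested in needles only, where it was -3.40, -3.15 and -3.07 at 0 hpe, -5.29, -4.62 and -4.71 at 1 dpi and -5.56, -5.43 and -6.01 at 6 wpi. It fell at both times, with no overlap of arrays and by limma (-1.67, SE 0.23, adjusted p = 0.000155 at 1 dpi and -2.46, SE 0.23, adjusted p = 1.93e-06 at 6 wpi). Its signal was weak, and its spots were not all well above background on every needle array. Chloroplast HSP90 (reCj19026) was called in no comparison. Its differences at 1 dpi passed the adjusted p below a size of 1, without overlap of arrays. They were 0.91 (SE 0.18, adjusted p = 0.000111) at the base and 0.82 (SE 0.18, adjusted p = 0.000637) in the middle.

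HIP1 (reCj21586), a tetratricopeptide protein that binds HSP70, was higher than at 0 hpe at the base at all 4 tested times. In the middle it was higher at each of these except 6 wpi. At the base it was -3.23, -2.83 and -1.79 at 0 hpe, -1.40, -0.44 and -0.30 at 1 dpi and 0.49, -0.33 and 0.20 at 6 wpi, and in the middle -2.72, -2.99 and -1.61 at 0 hpe, -0.48, -0.66 and -0.60 at 1 dpi and -2.41, -1.49 and -2.44 at 6 wpi. The base arrays at 6 wpi lay above every base array of 0 hpe and every middle array of 6 wpi. At 1 dpi the rise was 1.90 (SE 0.32, adjusted p = 1.22e-05) at the base and 1.86 (SE 0.32, adjusted p = 3.73e-05) in the middle. The middle was also called at 0 hpi (1.12, SE 0.32, adjusted p = 0.0138) and, barely above a size of 1, at 3 hpi (1.015, SE 0.32, adjusted p = 0.013). The calls at the base at 0 hpi (1.12) and 3 hpi (1.29) were lost without base 0 hpe replicate 1 or 2 (0.81 to 1.01) and without base 0 hpe replicate 1 (0.98, adjusted p = 0.0212). At 6 wpi it was 2.73 (SE 0.32, adjusted p = 7.43e-08) at the base, where with the slide as a block it was 2.88, adjusted p = 0.0509, and it was not called in the middle (0.33). Base exceeded middle by 2.23 (SE 0.32, adjusted p = 3.18e-06). The change at the base exceeded that in the middle by 2.41 (SE 0.46, adjusted p = 0.000713), or by 2.56, adjusted p = 0.103, with the slide as a block.

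Of the regulators of the heat shock response, HSFB4 (reCj21294), a transcription factor of the class that lacks an activation domain and in Arabidopsis acts in the root stem cell niche, was 4.01, 2.84 and 2.69 in the middle at 0 hpe and 2.00, 2.12 and 1.94 at 0 hpi. Its fall there (-1.16, SE 0.29, adjusted p = 0.0041) was lost without middle 0 hpe replicate 1 (-0.74, adjusted p = 0.108). It was lower in needles than at the base at 0 hpe by limma (-1.87, SE 0.29, adjusted p = 5.98e-07), with 1.18, 2.29 and 0.81 against 4.08, 3.22 and 2.59. The heat shock factor binding protein (reCj30860), which dampens heat shock factors, was 0.13, 0.14 and 0.65 at the base at 0 hpe and -0.59, -1.85 and -0.43 at 6 wpi. Its fall (-1.26, SE 0.28, adjusted p = 0.000353) was lost without base 6 wpi replicate 2 (-0.81, adjusted p = 0.0119) and with the slide as a block (-1.08, adjusted p = 0.407).

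Further co-chaperones, described after their values were seen, rose at 3 hpi. A target matching an ATPase activator that binds chaperones (reCj28235) was 1.01, 0.81 and 1.37 at the base at 0 hpe and 2.73, 2.92 and 2.80 at 3 hpi, and rose by 1.75 (SE 0.18, adjusted p = 1.28e-09) there and 1.68 (SE 0.18, adjusted p = 4.93e-08) in the middle. The GrpE nucleotide exchange factor (reCj25112), which recharges organellar HSP70, rose at 3 hpi by 1.29 at the base, 1.18 in the middle and 1.34 in needles, and in needles it reached 1.82 (SE 0.25, adjusted p = 0.000133) at 1 dpi. With the slide as a block the calls at 3 hpi in the stem were lost (0.80, adjusted p = 0.294 and 1.02, adjusted p = 0.0996). That in needles was lost without needles 0 hpe replicate 2 (0.89, adjusted p = 0.000448). At 6 wpi it was still higher in needles (1.45, SE 0.25, adjusted p = 0.000279), a call lost without needles 0 hpe replicate 2 (1.00, adjusted p = 0.000107) and with the slide as a block (1.79, adjusted p = 0.0605).

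J-domain proteins made up 33 of the 67 members, and the largest rise (reCj33232) and the largest fall (reCj29373) of any member in the stem were among them. At the base, 8 of 32 were called higher and 1 lower at 0 hpi (7.19% and 4.5% of all targets), 11 and 7 at 3 hpi (14.8% and 16.1%), 8 and 8 at 1 dpi (15.5% and 14.5%) and 3 and 3 at 6 wpi (17.5% and 12.7%). In the middle the counts were 6 and 1 (6.03% and 3.94%), 8 and 6 (11.1% and 8.73%), 6 and 4 (10.8% and 10.5%) and 1 and 0 (1.15% and 0.697%). In needles, of 33, they were 5 and 1 (5.6% and 4.44%), 7 and 2 (4.57% and 4.95%), 3 and 1 (1.78% and 2.22%) and 2 and 0 (5.57% and 7.96%).

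reCj33232, which matches a small protein with little more than a J domain, had the widest span of all members. At the base it was -4.09, -3.70 and -2.28 at 0 hpe, 3.35, 0.57 and 2.14 at 0 hpi, 6.51, 2.37 and 6.70 at 3 hpi, 6.61, 5.75 and 4.84 at 1 dpi and -0.53, 3.12 and -1.59 at 6 wpi. Middle arrays were -4.35, -3.84 and -2.80 at 0 hpe, 1.16, -0.10 and 0.11 at 0 hpi and 3.32, 4.95 and 4.47 at 1 dpi. From 0 hpi to 1 dpi all arrays of both parts lay above those at 0 hpe, and in needles, at -4.14, -4.50 and -3.91 at 0 hpe and -3.17, -2.70 and 1.72 at 3 hpi, the target was not called at any tested time. The rise at the base was 5.38 (SE 1.43, adjusted p = 0.00604) at 0 hpi, 8.55 (SE 1.43, adjusted p = 6.95e-06) at 3 hpi and 9.09 (SE 1.43, adjusted p = 3.87e-06) at 1 dpi, and in the middle 7.48 (SE 1.43, adjusted p = 0.000123) at 3 hpi and 7.91 (SE 1.43, adjusted p = 6.05e-05) at 1 dpi. These held when any array was left out. The calls in the middle at 0 hpi (4.05) and at the base at 6 wpi (3.69) were lost without middle 0 hpe replicate 1 or 2 or middle 0 hpi replicate 1, 2 or 3 (3.67 to 4.30) and without base 0 hpe replicate 1 or 2 or base 6 wpi replicate 2 (2.30 to 3.52). The change to 3 hpi in needles minus that at the base was -5.75 (SE 1.95, adjusted p = 0.0189). Its call was lost without base 3 hpi replicate 3 or needles 3 hpi replicate 1 or 2 (-5.10 to -4.86).

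J11 and J20 are small J proteins that in Arabidopsis are imported into chloroplasts, and each was the closest protein of 4 targets. For J11, reCj30941 rose in the stem and reCj29373 fell in all parts. reCj30941 was -2.18, -2.38 and -3.48 at the base at 0 hpe, 2.33, 2.15 and 2.05 at 0 hpi and 2.53, 2.64 and 2.10 at 1 dpi, a rise of 4.86 (SE 0.82, adjusted p = 2.86e-05) and 5.10 (SE 0.82, adjusted p = 4.97e-06). In the middle the rise at 3 hpi was 3.33 (SE 0.82, adjusted p = 0.00164), and the call at 0 hpi (2.33) was lost without middle 0 hpe replicate 1, 2 or 3 or middle 0 hpi replicate 1, 2 or 3 (1.94 to 2.68). reCj29373 was 4.40, 4.01 and 3.48 at the base at 0 hpe and 1.90, 1.83 and 1.68 at 3 hpi. At the same times it was 4.19, 4.31 and 3.62 and 1.67, 1.67 and 2.31 in the middle, and 3.02, 4.02 and 2.72 and 1.09, 2.31 and 1.84 in needles. No group at 3 hpi overlapped its 0 hpe, and the differences were -2.16 (SE 0.30, adjusted p = 3.52e-07), -2.16 (SE 0.30, adjusted p = 1.85e-06) and -1.50 (SE 0.32, adjusted p = 0.0019). At 1 dpi the fall was -1.87 at the base and -2.69 (SE 0.30, adjusted p = 1.03e-07) in the middle. reCj31603 rose later, by 4.22 (SE 1.10, adjusted p = 0.0017) at the base at 1 dpi (with the slide as a block 2.27, adjusted p = 0.259) and by 3.21 (SE 0.57, adjusted p = 0.000507) in needles at 3 hpi. In the middle its call at 1 dpi (3.04) was lost without middle 0 hpe replicate 3 or middle 1 dpi replicate 2 or 3 (2.07 to 2.77). The remaining J11 target, reCj30541, was -4.30, -4.54 and -3.08 at the base at 0 hpe and 3.56, 3.42 and 3.05 at 1 dpi, and in the middle -4.22, -5.02 and -3.42 and 0.66, 2.36 and 1.86. All arrays at 1 dpi lay above those at 0 hpe, and the means differed by 7.32 at the base and 5.85 in the middle. The stem was not tested for it because the signal was 10 or less on 1 of 48 arrays, and in needles it was not called.

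Targets of J20 parted in the same way. At the base reCj31389 was -1.02, -1.31 and -1.79 at 0 hpe and 3.70, 1.81 and 4.01 at 3 hpi, reCj32576 -1.33, -0.85 and -1.78 and 3.81, 2.47 and 4.26, and reCj27618 4.63, 4.35 and 3.64 and 2.05, 1.19 and 1.82. reCj31389 and reCj32576 rose without overlap at 3 hpi, by 4.55 (SE 0.72, adjusted p = 2.9e-06) and 4.83 (SE 0.93, adjusted p = 4.94e-05), while reCj27618 fell, also without overlap (-2.52, SE 0.30, adjusted p = 2.37e-08). reCj33230 rose in needles instead, from -3.34, -1.90 and -4.18 at 0 hpe to 2.49, -0.62 and 1.37 at 3 hpi (4.22, SE 0.80, adjusted p = 0.000853), and was not called at the base. In needles at 6 wpi reCj31389 was 1.58 (SE 0.61, adjusted p = 0.0478) above 0 hpe, with overlapping arrays, and this was lost without needles 0 hpe replicate 1 or 3 or needles 6 wpi replicate 1 or 2 (0.99 to 1.53). The rise of reCj33230 in the middle at 6 wpi (3.34) was lost without middle 0 hpe replicate 3 or middle 6 wpi replicate 1, 2 or 3 (2.17 to 3.63). The change to 3 hpi in needles minus that at the base was 2.47 (SE 0.43, adjusted p = 2.04e-05) for reCj27618 and 4.02 (SE 1.29, adjusted p = 0.0129) for reCj33230. The latter was lost without base 0 hpe replicate 2, base 3 hpi replicate 2 or needles 3 hpi replicate 1 (3.25 to 3.32).

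**Figure D5:**
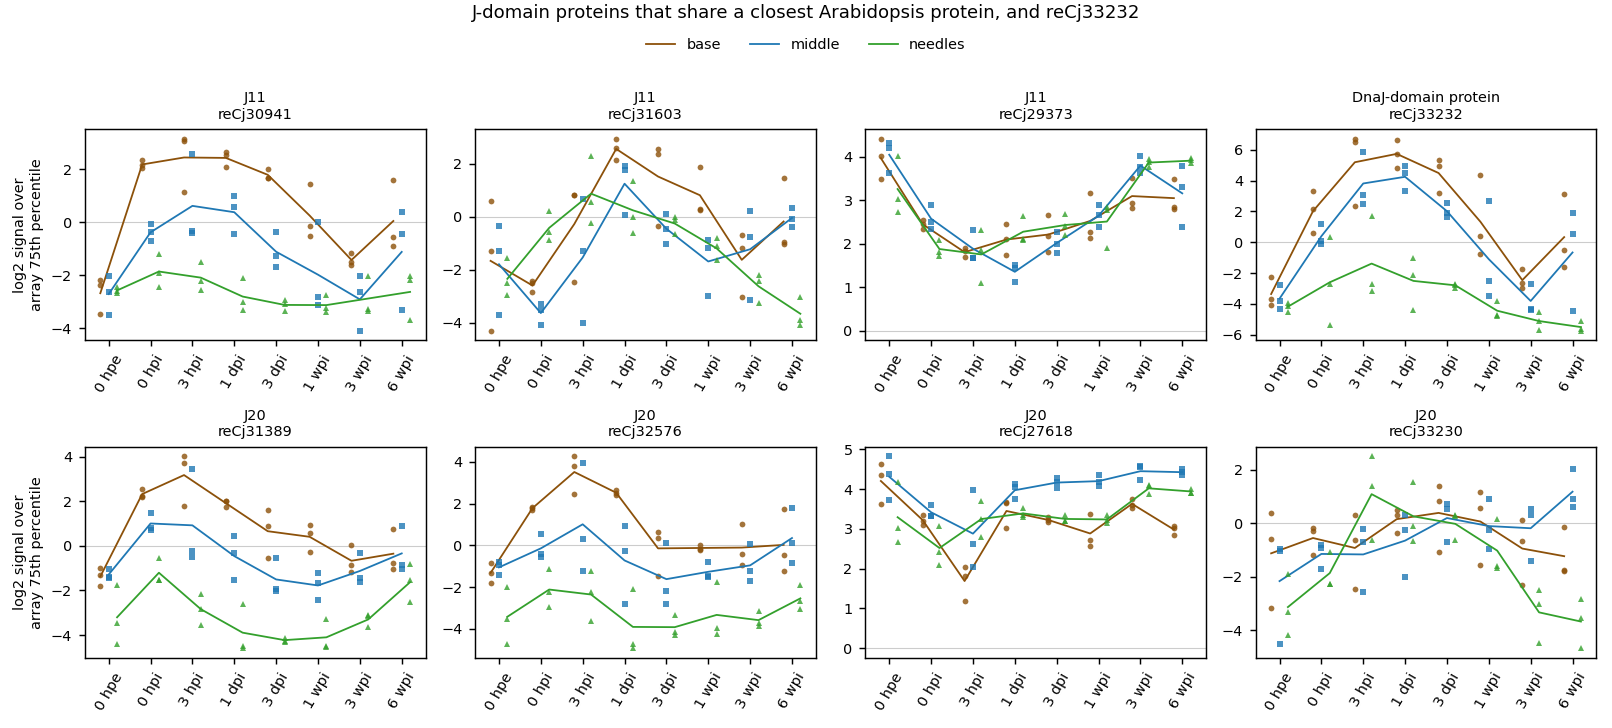
Points give the value of each array (log2 signal minus that of the 75th percentile) for reCj33232, 3 targets of J11 and 4 targets of J20 at the 8 times, coloured by part, and lines join the means of 3 arrays. At the base at 3 hpi the mean of reCj31389 was 3.17 against -1.38 at 0 hpe, and that of reCj27618 was 1.69 against 4.20.

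Of the 7 closest proteins shared by several members, 3 had targets called in opposite directions over time, J11, J20 and a DNAJ heat shock family protein. Of the targets of the last, reCj33677 was -0.98, -1.71 and -0.95 in needles at 0 hpe and 1.03, 1.26 and 1.08 at 0 hpi. It rose at 0 hpi in every part, by 1.55 (SE 0.34, adjusted p = 0.00108) at the base, 1.88 (SE 0.34, adjusted p = 0.000127) in the middle and 2.33 (SE 0.22, adjusted p = 2.3e-07) in needles. reCj23592 was 4.59, 4.54 and 3.68 at the base at 0 hpe and 2.76, 1.40 and 2.69 at 3 hpi, and fell there (-1.98, SE 0.27, adjusted p = 1.81e-07) and in the middle (-1.36, SE 0.27, adjusted p = 0.000151).

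The other J-domain targets named here were chosen after their values were seen. J8 (reCj10660), a chloroplast J protein, was -0.27, 0.56 and -0.87 in needles at 0 hpe, 3.39, 2.95 and 3.12 at 0 hpi and 4.58, 1.64 and 3.23 at 3 hpi. These rises, 3.35 (SE 0.60, adjusted p = 0.000425) and 3.34 (SE 0.60, adjusted p = 0.000548), came without overlap, and at the base a rise of 3.32 (SE 0.70, adjusted p = 0.000194) was called at 1 dpi, but not with the slide as a block (1.85, adjusted p = 0.105). reCj15678, of the Hsp40 family, rose at 0 hpi in all parts (base 1.30, middle 1.17 and needles 1.95), and the call in the middle was lost without middle 0 hpi replicate 3 (1.03, adjusted p = 0.0593). reCj32131, a DnaJ-like target, rose in the stem, by 2.36 (SE 0.37, adjusted p = 2.62e-06) at the base and 1.72 (SE 0.37, adjusted p = 0.000459) in the middle at 3 hpi, and fell in needles at 1 dpi (-1.51, SE 0.25, adjusted p = 0.00084). reCj26055 fell at 3 hpi in all parts (base -2.18, middle -1.60 and needles -1.46). Of the 64 members tested in all 3 parts, 5 were called higher in every part at 0 hpi, 6 at 3 hpi, 4 at 1 dpi and none at 6 wpi. At 3 hpi reCj29373 and reCj26055 were those called lower in every part. This overlap was not counted over all targets, so whether these counts are unusual was not tested.

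Members with a chloroplast role moved both ways in the stem. CPN20, J8, the J11 target reCj30941 and the J20 targets reCj31389 and reCj32576 rose as given above, and 3 that fell are given here, chosen after their values were seen. NdhT (reCj26673), a J-domain subunit of the chloroplast NAD(P)H dehydrogenase complex, was -0.68, -1.05 and -1.37 at the base at 0 hpe and -3.20, -3.33 and -3.42 at 3 hpi, and fell there (-2.28, SE 0.31, adjusted p = 1.88e-07) and in the middle (-1.53, SE 0.31, adjusted p = 0.000196). LQY1 (reCj29158), a zinc finger protein of the thylakoid that takes part in the repair of photosystem II, was -1.76, -1.50 and -1.88 at 0 hpe and -3.54, -3.83 and -3.42 at 1 dpi at the base, and fell at 1 dpi there (-1.89, SE 0.30, adjusted p = 5.11e-06) and in the middle (-1.71, SE 0.30, adjusted p = 4.74e-05). A target of the trigger factor type (reCj22188), a chaperone of new proteins at the ribosome in bacteria and chloroplasts, fell at 1 dpi at the base (-1.30, SE 0.21, adjusted p = 6.49e-06) and in the middle (-1.38, SE 0.21, adjusted p = 7.65e-06). None of these 3 was called in needles over time. All 6 green tissue markers were lower at the base at these times, with a mean of 4.65 before insertion (0 hpe), 1.55 after 3 h and 1.63 after 1 day. In the middle this mean was 4.98, 3.47 and 2.99. Their part in the falls was not tested.

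Among the targets with only the cysteine-rich domain of DnaJ, reCj26266 rose at the base at 3 hpi by 2.11 (SE 0.39, adjusted p = 2.86e-05), and reCj16332 was 2.44 (SE 0.19, adjusted p = 9.76e-14) higher in needles than at the base at 0 hpe. Among chaperones of other cargo, COX17 (reCj30938), which brings copper to cytochrome c oxidase, rose in needles from -3.12, -3.09 and -3.10 at 0 hpe to -0.62, -1.54 and -1.63 at 0 hpi (1.84, SE 0.24, adjusted p = 1.33e-05). The stem was not tested for COX17, but its means there were also lowest at 0 hpe. They went from -4.69 to a highest of -1.80 at 1 wpi at the base. In the middle they went from -5.08 to a highest of -2.08 at 3 hpi. The ASF1-like histone chaperone (reCj26801), which hands histones over for assembly on DNA, was 2.01, 1.07 and 2.17 in needles at 0 hpe and -0.12, 0.25 and -1.04 at 6 wpi, a fall (-2.05, SE 0.39, adjusted p = 0.00059) that at 3 hpi was -1.49, SE 0.39, adjusted p = 0.00854. At the base it was -1.53, -1.76 and 0.36 at 0 hpe and 1.49, -0.72 and 1.27 at 6 wpi, and these groups overlapped. The rise of 1.66 (SE 0.65, adjusted p = 0.0323) was lost without base 0 hpe replicate 1 or 2 or base 6 wpi replicate 1 or 3 (1.25 to 1.38) and with the slide as a block (3.50, adjusted p = 0.181). The change in needles minus that at the base was -3.71 (SE 0.83, adjusted p = 0.000265).

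Between base and middle, fewer members were called at 3 hpi than at 6 wpi, and the same was true of all targets. At 3 hpi 2 of 64 members were higher and 4 lower at the base (1.72% and 3.59% of all targets), and at 6 wpi 5 and 8 (14.2% and 11%). At 3 hpi reCj31389 was 2.26 (SE 0.72, adjusted p = 0.0386) and reCj26266 1.41 (SE 0.39, adjusted p = 0.0178) higher at the base, with overlapping arrays. reCj31197 was lower there (-1.21, SE 0.37, adjusted p = 0.0337), as was reCj27618 (-1.19, SE 0.30, adjusted p = 0.0106). These calls were lost without base 3 hpi replicate 1 or 3 or middle 3 hpi replicate 2 or 3 (1.55 to 1.99) for reCj31389, without base 3 hpi replicate 1 or 3 or middle 3 hpi replicate 2 or 3 (0.96 to 1.26) for reCj26266, without base 3 hpi replicate 2 or middle 3 hpi replicate 2 or 3 (-1.28 to -0.49) for reCj31197 and without base 3 hpi replicate 2 or middle 3 hpi replicate 3 (-0.94 to -0.65) for reCj27618. The change from 0 hpe differed between the parts for no member at 3 hpi by limma (0.0084% and 0.0924% of all targets), with 10 at an unadjusted p below 0.05, and at 6 wpi it was larger at the base for 3 and smaller for 7 members (9.24% and 8.16%). The 3 were HIP1, HSP101 and the ER HSP90. The 7 held the 3 class I small heat shock proteins above, GrpE (-1.45, SE 0.51, adjusted p = 0.0349), the trigger factor type target (-1.40, SE 0.30, adjusted p = 0.0018) and the J-domain targets reCj27618 and reCj23592. The call of GrpE (reCj25112) was lost without base 0 hpe replicate 1 or 3, base 6 wpi replicate 2, middle 0 hpe replicate 2 or 3 or middle 6 wpi replicate 1 or 3 (-1.49 to -1.12). Same-numbered base and middle arrays deviated together at 0 hpe and 6 wpi, and with the replicate number as a block the split was 4 and 8, reCj26801 (2.07, adjusted p = 0.0454) and the J20 target reCj33230 (-3.45, adjusted p = 0.0065) being called in addition. With quantile normalization it was 2 and 9, and with the slide as a block 1 member, reCj21014, was called. The median over all targets was 0.12 for base against middle at 6 wpi and 0.13 for the difference of changes.

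Between needles and base at 0 hpe, 8 of 64 members were higher and 10 lower in needles (11.8% and 13.4% of all targets), or 6 and 4 with normexp background correction. Of the 8 small heat shock protein targets 4 were lower in needles and none higher, with class I targets at -2.15 (SE 0.35, adjusted p = 2.35e-06) for reCj32462 and -1.62 (SE 0.40, adjusted p = 0.000693) for reCj31568. The J20 target reCj32576 was also lower (-2.10, SE 0.91, adjusted p = 0.0494), a call lost without base 0 hpe replicate 1, 2 or 3 or needles 0 hpe replicate 1 or 3 (-2.33 to -1.44), and the ASF1-like target reCj26801 was higher (2.73, SE 0.59, adjusted p = 0.000148). The change from 0 hpe to 3 hpi was larger in needles for 8 members and larger at the base for 11 (12.6% and 10.9%), and that to 6 wpi for 14 and 14 (16.3% and 18.9%). At 6 wpi 6 of 10 ATP-driven chaperones, HSP101 and both HSP60 targets among them, had the lower change in needles, and 3 class I small heat shock proteins had the higher. The comparisons of base with middle and with needles share the base arrays.

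The base and middle list held 27 further chaperone partners of other names. They were co-chaperones, Clp, CDC48 and prefoldin type proteins, calnexins and calreticulins, BAG proteins, protein disulfide isomerases and peptidyl-prolyl isomerases. Of these, 10 rose and 3 fell at the base at 3 hpi (14.8% and 16.1% of all targets), 7 and 2 did at 1 dpi (15.5% and 14.5%), 9 and 0 at 6 wpi (17.5% and 12.7%) and 0 and 1 at 0 hpi (7.19% and 4.5%). In the middle 8 rose and 2 fell at 3 hpi (11.1% and 8.73%), 10 and 1 at 1 dpi (10.8% and 10.5%), and 1 rose at 6 wpi (1.15%). In needles, of 25, 2 rose at 0 hpi (5.6%), 4 rose at 3 hpi (4.57%) and 4 fell at 6 wpi (7.96%). The partners were picked from the same 2 supplementary tables, with earlier results of these data known. They too had been listed because of how they varied among these arrays. A raised share of called partners therefore follows in part from the choice and is not independent evidence. The largest rise was that of CLPC1 (reCj11139), an HSP100 chaperone of the chloroplast, by 3.58 (SE 0.35, adjusted p = 6.7e-10) at the base at 3 hpi. Another CLPC1 target, reCj11138, was among the partners, and its change is not given here. At 6 wpi the largest at the base was BAG7 (reCj23056), an ER co-chaperone, by 2.81 (SE 0.30, adjusted p = 1.26e-08). The partners were fitted in the main setting only. Their calls were not tried with the slide as a block, another normalization or an array left out. In this comparison the calls of the members were lost with the slide as a block, as given above. The largest fall at the base was that of ROF1 (reCj11412), an isomerase that binds HSP90, at 3 hpi (-1.88, SE 0.47, adjusted p = 0.00104).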

How the data were processed

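Per the labels, cRNA of each sample was labelled with Cy3 and hybridised to an Agilent 8 × 60K array, and the authors extracted features with Agilent Feature Extraction 11.5. The deposited scanner files give processed intensity per spot, already background-subtracted. The authors' table gives log2 values, scaled to the 75th percentile and centred per target, which values recomputed from the scanner files matched within 0.00451. The intensity of the 3 or 4 spots per target was averaged without spots flagged as non-uniform, logged and set relative to the 75th percentile of 19304 targets. A target was tested where no spot was flagged, every spot was positive and significant and the mean signal exceeded 10 on all arrays of the parts compared. limma 3.58.1 in R 4.3.3 was fitted once on base and middle, once on needles and once on all arrays, with Benjamini-Hochberg adjustment over each list, and was tested on simulated data. No covariate was used. Replicates were separate cuttings, and their number limits the precision.

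The members and lists were chosen with earlier results of these data known. The text names all small heat shock proteins, all ATP-driven chaperones, HSFB4, the heat shock factor binding protein and the largest 2 rises and falls among called members of each comparison; further members are named as chosen after their values were seen. Alternatives were normexp background correction on median signals, quantile normalization, a list with every spot well above background, no filter, the authors' table, fits on the arrays compared, the replicate number or the slide as a block, and leaving out each array. Same-numbered base and middle arrays deviated together (every correlation over 0.1) at 0 hpe, 3 dpi and 6 wpi. Middle and needles did so at 3 wpi, and base and needles at none of the 8 times. The paper collected the parts from 3 cuttings at each time, so parts of a time share cuttings. The labels do not say whether equal replicate numbers name the same cutting. Low correlations over 3 arrays cannot show that parts were unpaired. The main fits ignored this pairing, and the replicate block took equal numbers as pairs.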

Additional observations from a re-analysis of the deposited data

Results flagged for a closer look

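The change from 0 hpe differed between parts by limma's interaction contrast, at an adjusted p below 0.05 and a size of at least 1, for the following named members. The comparisons share base arrays, and no explanation was tested. SE stands for the standard error.

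Between base and middle at 6 wpi, the change at the base was larger by 2.41 (SE 0.46, adjusted p = 0.000713) for HIP1 (reCj21586), 2.29 (SE 0.37, adjusted p = 0.000195) for HSP101 (reCj18929) and 1.80 (SE 0.53, adjusted p = 0.015) for the ER HSP90 (reCj18924). It was smaller for class I small heat shock proteins, with -2.14 (SE 0.59, adjusted p = 0.00978) for reCj31568, -2.61 (SE 0.54, adjusted p = 0.00134) for reCj32462 and -2.63 (SE 0.82, adjusted p = 0.0201) for reCj31416. None of the 6 was called with the slide as a block. The call of reCj31416 was lost without base 6 wpi replicate 3 or middle 0 hpe replicate 2 (-2.27 to -2.21) and that of the ER HSP90 without base 0 hpe replicate 2, middle 0 hpe replicate 3 or middle 6 wpi replicate 3 (1.36 to 1.57).

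Between needles and base at 3 hpi, the change in needles minus that at the base was 4.02 (SE 1.29, adjusted p = 0.0129) for reCj33230 and 2.47 (SE 0.43, adjusted p = 2.04e-05) for reCj27618, both matching J20. It was -1.13 (SE 0.37, adjusted p = 0.0144) for HSP101 (reCj18929), -4.64 (SE 1.02, adjusted p = 0.000478) for the J11 target reCj30941 and -5.75 (SE 1.95, adjusted p = 0.0189) for the DnaJ-domain target reCj33232. The calls were lost without base 0 hpe replicate 2, base 3 hpi replicate 2 or needles 3 hpi replicate 1 (3.25 to 3.32) for reCj33230, without needles 0 hpe replicate 2 or needles 3 hpi replicate 2 (-0.98 to -0.85) for HSP101 and without base 3 hpi replicate 3 or needles 3 hpi replicate 1 or 2 (-5.10 to -4.86) for reCj33232.

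Between needles and base at 6 wpi, the change was higher in needles for GrpE (reCj25112, 2.22, SE 0.46, adjusted p = 0.000112) and the trigger factor type target (reCj22188, 1.93, SE 0.26, adjusted p = 1.01e-07). For the class I small heat shock proteins it was 1.79 (SE 0.75, adjusted p = 0.0436) for reCj31416, 1.58 (SE 0.56, adjusted p = 0.0173) for reCj31568 and 1.48 (SE 0.50, adjusted p = 0.0121) for reCj32462. It was lower for ATP-driven chaperones, with -1.003 (SE 0.28, adjusted p = 0.00258) and -1.30 (SE 0.35, adjusted p = 0.00193) for HSP60 (reCj20343 and reCj20923), -1.08 (SE 0.19, adjusted p = 9.26e-06) for the TCP-1 subunit reCj21014, -1.31 (SE 0.40, adjusted p = 0.0055) for the ER HSP70 (reCj18288), -1.77 (SE 0.55, adjusted p = 0.00637) for the ER HSP90 (reCj18924) and -2.29 (SE 0.37, adjusted p = 1.84e-06) for HSP101 (reCj18929). It was -3.71 (SE 0.83, adjusted p = 0.000265) for the ASF1-like histone chaperone (reCj26801) and -5.02 (SE 1.95, adjusted p = 0.0291) for reCj33232. Of these, reCj31416 lost its call without base 0 hpe replicate 1, 2 or 3, base 6 wpi replicate 1 or 3, needles 0 hpe replicate 1 or 2 or needles 6 wpi replicate 1, 2 or 3 (1.37 to 1.89). That of reCj20343 was lost without base 0 hpe replicate 1 or 3, base 6 wpi replicate 1, needles 0 hpe replicate 2 or needles 6 wpi replicate 1 or 3 (-0.996 to -0.843). That of reCj33232 was lost without base 0 hpe replicate 1 or 2, base 6 wpi replicate 2, needles 0 hpe replicate 3 or needles 6 wpi replicate 3 (-4.90 to -3.62), that of reCj31568 without base 6 wpi replicate 3 (1.32, adjusted p = 0.0606) and that of reCj21014 without base 6 wpi replicate 1 (-0.90, adjusted p = 0.000162).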

How the results depend on the processing

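Of 19 counts of called members, those at the base at 3 hpi and 1 dpi, in the middle at 1 dpi, in needles at 0 hpi, for base against middle at 6 wpi, for the base minus the middle change at 3 hpi (0 members) and for the change in needles minus that at the base at 6 wpi stayed within 1.5 times under all settings that change the processing. No value of a named member changed sign in a called comparison. With normexp background correction the count was 10 at the base at 0 hpi, 3 for base against middle at 3 hpi, 3 in needles at 6 wpi and 10 for needles against base at 0 hpe. With quantile normalization it was 3 for base against middle at 3 hpi, and with every spot well above background 3 in the middle at 6 wpi. Fitted on only the arrays compared, it was 9 at the base at 0 hpi, 10 in the middle at 3 hpi, 0 in the middle at 6 wpi, 2 in needles at 3 hpi, 4 in needles at 1 dpi and 0 for base against middle at 3 hpi, and for differences of changes 4 (base minus middle at 6 wpi) and 8 (needles minus base at 3 hpi). With the slide as a block it was 9 at the base at 0 hpi, 1 at the base at 6 wpi, 4 in the middle at 0 hpi, 3 in the middle at 6 wpi, 1 in needles at 6 wpi and 1 for base minus middle at 6 wpi; base against middle at one time could not be fitted with it. The cause was not tested. The higher and lower calls with normexp were 2 and 1 for base against middle at 3 hpi and 1 and 2 in needles at 6 wpi. A replicate block, which takes same-numbered samples as pairs, moved no count by over 1.5 times (higher and lower calls were 5 and 9 for base against middle at 6 wpi, 4 and 4 at 3 hpi, and 4 and 8 for base minus middle at 6 wpi). In the comparisons over time it joined different cuttings by number alone. Its counts there are therefore no check on those comparisons.

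Leaving out each array in turn gave 8 to 21 at the base at 0 hpi, 27 to 31 at 3 hpi, 25 to 28 at 1 dpi and 13 to 20 at 6 wpi. In the middle it gave 5 to 18, 16 to 27, 19 to 22 and 1 to 8, and in needles 8 to 13, 11 to 19, 5 to 10 and 6 to 9. Base against middle gave 2 to 11 at 3 hpi and 12 to 20 at 6 wpi, their changes 0 to 3 and 6 to 14, needles against base 12 to 21, and their changes 14 to 22 and 23 to 27. The count at the base at 0 hpi fell to 8 and 9 without base 0 hpe replicate 1 or 2. In the middle it fell at 0 hpi to 6, 5 and 5 without 0 hpe replicate 1 or 2 or 0 hpi replicate 3, and at 6 wpi to 2, 3, 1 and 2 without 0 hpe replicate 2 or 3 or 6 wpi replicate 1 or 2, and rose to 8 without 6 wpi replicate 3. Base against middle at 3 hpi was 3, 3, 11, 2 and 2 without base replicate 1 or 3 or middle replicate 1, 2 or 3, and at 6 wpi 20 without base replicate 2. For needles at 1 dpi it was 5 without 1 dpi replicate 2, and for base minus middle 6 at 6 wpi without middle 0 hpe replicate 3, and 1 and 3 at 3 hpi without base 3 hpi replicate 2 or middle 3 hpi replicate 1.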
